A study of Mus musculus with 6 samples.

Results

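Wnt ligands, their receptors, the secreted modulators of the pathway and its intracellular effectors were described in 2H11, a mouse cell line that its submitters label endothelial. The members were the genes whose symbol matched a fixed set of Wnt pathway names (Wnt, Fzd, Sfrp, Dkk, Lrp5/6, Ror, Ryk, Axin, Dvl, Lgr4 to Lgr6, TCF/LEF, Nkd, Rspo, Znrf3, Rnf43, Porcn, Wls, Apc, Apcdd1, Ctnnb1, Gsk3, Wif1, Notum and Kremen), irrespective of their level. A gene row was listed for 49 of them, among 11773 listed genes. The same names match 73 protein-coding genes of the GENCODE vM21 annotation. The other 24 are not analysed here at the gene level: Wnt2, Wnt2b, Wnt3, Wnt3a, Wnt5b, Wnt7a, Wnt7b, Wnt8a, Wnt8b, Wnt9b, Wnt16, Fzd3, Fzd9, Fzd10, Sfrp5, Dkk1, Dkk4, Kremen2, Lgr5, Rspo1, Rspo4, Rnf43, Porcn and Wif1.

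The study measured polyadenylated RNA in 6 libraries. In 3 of them, starved 2H11 cells (strain C3H/HeJ, with the tissue label axillary lymph node/vascular epithelium) had received BMP4, a ligand that drives bone and cartilage formation, for 48 h. In the other 3 the cells had received BMP4 and palovarotene, an agonist of retinoic acid receptor gamma, for the same time. Both groups therefore carried BMP4. The labels give no dose of either agent, and no group without BMP4 is part of the comparison. 2H11 is a single established line. Separate cultures are not stated for the libraries of a group, so the spread that p-values rest on may be technical.

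Wnt proteins are lipid-modified secreted ligands that bind Frizzled receptors. With the co-receptors Lrp5 and Lrp6 they keep β-catenin, the product of Ctnnb1, from being degraded by a complex of Axin, Apc and Gsk3, so that β-catenin reaches TCF/LEF factors on DNA. Other branches run through Ror or Ryk receptors and act on cell polarity and calcium without β-catenin. In bone, Wnt signalling through β-catenin favours the osteoblast over the chondrocyte, and it works beside BMP signalling in skeletal progenitors.

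Levels are FPKM, fragments set relative to transcript length and to the mapped total, and so can be compared between genes. Calls were made at a threshold of 0.05 on the adjusted p of limma on log2(FPKM + 1), fitted over the 11584 genes whose mean reached 0.5 FPKM. Log2 fold changes are on that scale and positive where palovarotene was higher, and for genes of low level they understate the change. Pearson's r across tested genes, which are not independent replicates, was 0.988 to 0.991 within the BMP4 group, 0.992 to 0.993 within the palovarotene group and 0.954 to 0.959 between groups. Of 16 endothelial markers, 6 had a row (Eng, Flt1, Tek, Egfl7, Vwf and Fli1). Of the defining markers, Cdh5, Kdr and Pecam1 had no row and are not analysed here. The summed level of the 6 was 28.2 to 31.5 FPKM in the BMP4 libraries and 26.5 to 28.4 in the palovarotene libraries, most of it from Eng (21.6 ± 1.61 and 23.6 ± 1.24 FPKM, SD, n = 3, not called). Of the 5 tested, 3 fell and 0 rose, where 43.0% of all tested genes were called. Vwf, listed through the BMP4 group, fell from 1.17 ± 0.126 to 0.0258 ± 0.00298 FPKM. Flt1 fell from 3.93 ± 0.0792 to 1.27 ± 0.0730 FPKM and Tek from 1.86 ± 0.130 to 0.697 ± 0.128 FPKM. Fli1, under the level required for the test, went the other way without overlap, from between 0.163 and 0.264 to between 0.388 and 0.741 FPKM. The 9 of 9 fibroblast and mesenchymal markers with a row summed to 1307 to 1428 and 1368 to 1434 FPKM, with Col1a1 the largest part, but 2 of them rose and 5 fell. Pdgfra rose from 9.25 ± 0.540 to 28.0 ± 0.579 FPKM and Col1a1 by 0.39 on the log2 scale, whereas Vim, Pdgfrb, Thy1, Lum and Dcn fell, by between 0.15 and 0.82. Leukocyte markers (2 of 6 listed, Cd14 and Cd68) summed to 16.6 to 17.8 and 10.1 to 11.1 FPKM, and both fell. Krt19 was the only one of 5 epithelial markers with a row, at 9.06 to 11.2 and 31.3 to 32.4 FPKM, and rose. The part of these differences in the Wnt results was not tested, and in bulk RNA fewer cells of a type and less RNA per cell cannot be told apart.

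With palovarotene, some Wnt genes rose and more of them fell. Of the 49 genes, 49 were tested, 14 rose and 22 fell, so that 36 were called (73.5%). Among all tested genes 43.0% were called, 19.1% higher and 23.8% lower. At least a 2-fold change on the log2(FPKM + 1) scale was seen in 8 Wnt genes (16.3%), against 3.73% of all tested genes. These were Wnt10b, Lgr6 and Wnt9a, which rose, and Sfrp2, Rspo2, Nkd2, Wnt4 and Wnt5a, which fell. In 37 Wnt genes the groups did not overlap (75.5%), against 54.9% of all tested genes. The median log2 fold change was -0.08 over the Wnt genes and -0.03 over all tested genes. For 6 members (Wnt1, Ror1, Lgr6, Sfrp2, Nkd2 and Dkk2) the mean of one group lay under 0.5 FPKM, so that they were listed through the other group. Of the remaining 43, 11 rose and 19 fell (69.8% called). Among these 43, 5 changed at least 2-fold (11.6%) and the groups did not overlap in 31 (72.1%). The shares over all tested genes were not restricted in this way.

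**Figure D1:**
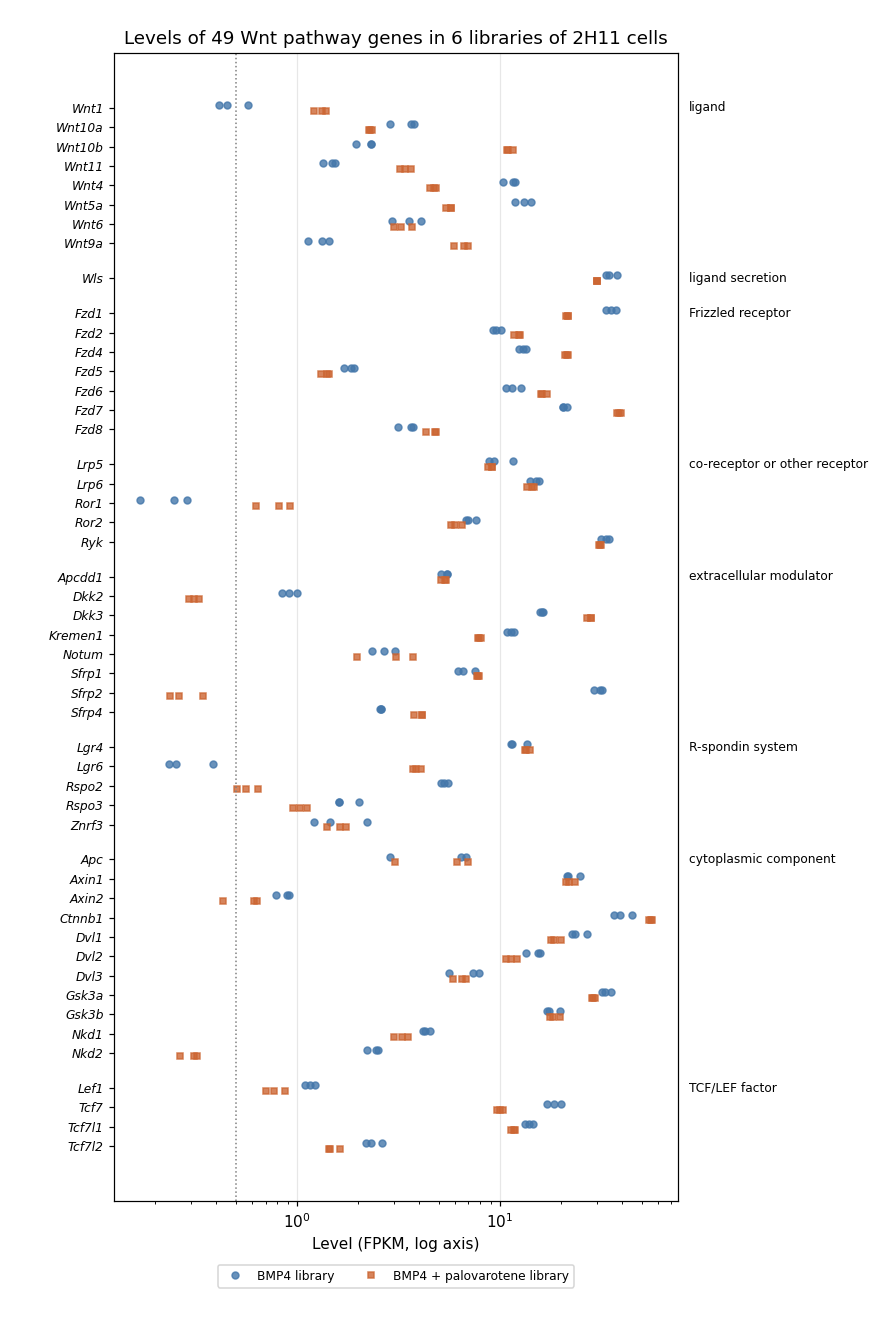
Level of each of the 49 Wnt pathway genes (FPKM, log axis) in the 3 BMP4 libraries (circles) and the 3 BMP4 + palovarotene libraries (squares), grouped by role; the dotted line marks 0.5 FPKM. Sfrp2 lay at 29.1 to 31.9 FPKM with BMP4 and at 0.238 to 0.343 with palovarotene, the widest gap of the 49 on this axis, whereas the libraries of Axin1, Gsk3b, Lrp6 and Apcdd1 overlapped.

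**Figure D2:**
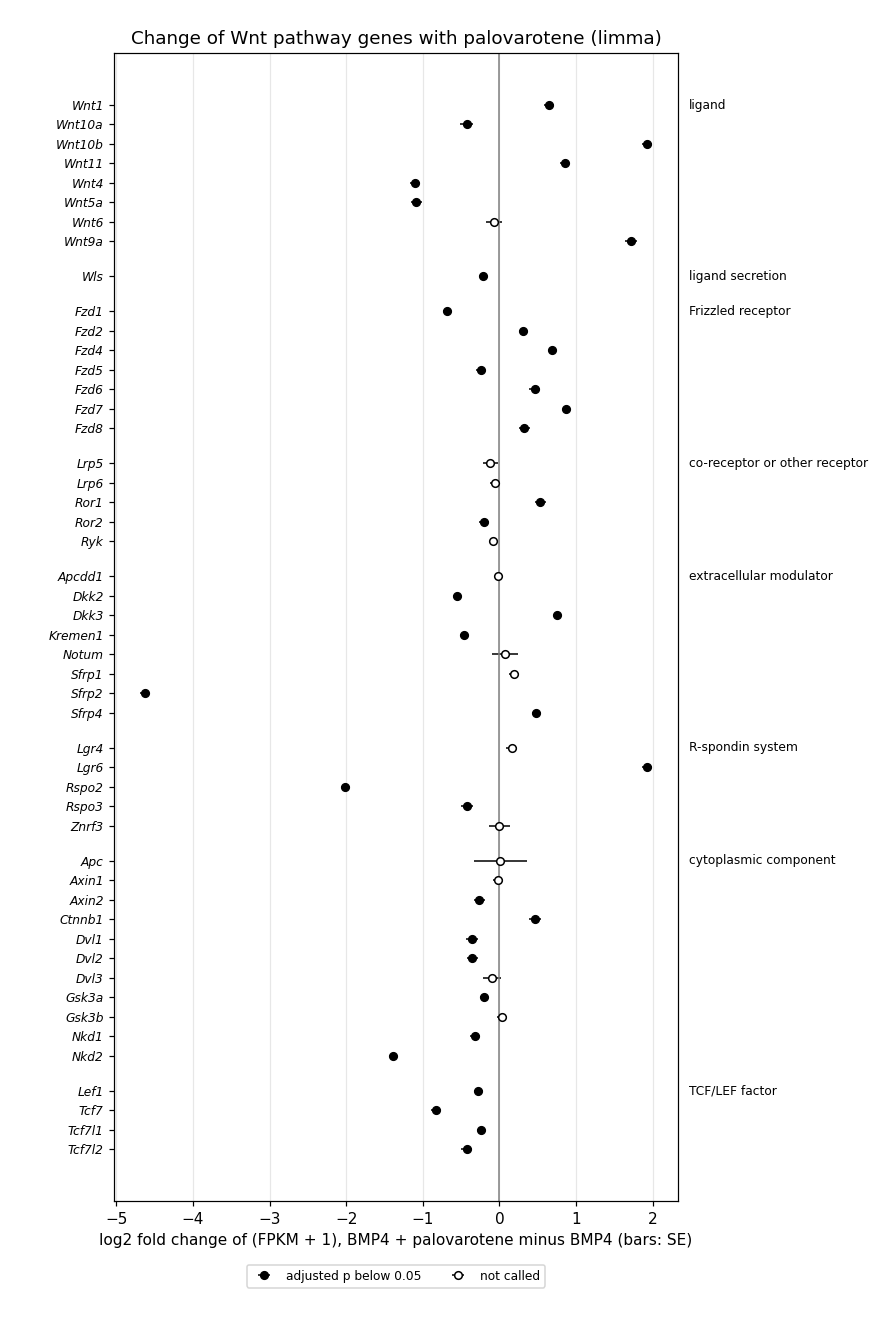
Log2 fold change of (FPKM + 1), BMP4 + palovarotene minus BMP4, with its SE from limma for each Wnt pathway gene; filled symbols passed an adjusted p of 0.05 and open symbols did not. All 4 TCF/LEF genes lay below 0, between -0.83 and -0.24, and 5 of the 7 Frizzled genes above 0.

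Among the ligand genes, 4 of 8 rose, 3 fell and Wnt6 did not pass the test (87.5% called, against 43.0% of all tested genes). Wnt10b (chr15:98770712-98778150 on GRCm38, the build of all positions here), whose product favours bone over fat formation in mice, had 2.32, 2.33 and 1.95 FPKM in the BMP4 libraries and 11, 11.6 and 10.8 FPKM in the palovarotene libraries. All palovarotene libraries were thus above all BMP4 libraries, with a log2 fold change of 1.93 (SE 0.0661, limma adjusted p = 2.08e-06), and the ratio of the mean levels was 5.06. Wnt9a (chr11:59306928-59333552), a ligand gene of developing joints, had 1.44, 1.13 and 1.32 FPKM with BMP4 and 5.96, 6.65 and 7.0 FPKM with palovarotene. It rose by 1.71 (SE 0.0777, adjusted p = 6.95e-06) without overlap, a ratio of means of 5.03. Wnt11, a ligand gene known for polarity signalling in the embryo, was measured at 1.53, 1.34 and 1.49 FPKM and at 3.67, 3.41 and 3.22 FPKM (log2 fold change 0.85, adjusted p = 6.05e-05). Wnt1, the founding ligand of β-catenin signalling, stood at 0.413, 0.451 and 0.574 FPKM with BMP4 and at 1.40, 1.21 and 1.33 FPKM with palovarotene. Its change was 0.64 (adjusted p = 0.000240), and it remained the lowest of the 8 ligand genes in both groups.

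Of the ligand genes that fell, Wnt5a and Wnt4 had the highest levels with BMP4. Wnt5a (chr14:28504750-28527448), the main ligand of the Ror2 branch, gave 13.1, 14.2 and 11.9 FPKM with BMP4 and 5.41, 5.74 and 5.74 FPKM with palovarotene. Wnt4 (chr4:137277489-137299726), a ligand gene needed for the kidney tubule in mice, gave 10.4, 11.9 and 11.6 FPKM and then 4.76, 4.83 and 4.53 FPKM. Neither gene overlapped between groups, and the falls had SEs of 0.0686 and 0.0625 on the log2 scale (adjusted p = 3.29e-05 for Wnt5a and 1.89e-05 for Wnt4). Wnt10a, known for its role in teeth and skin appendages, had 3.79, 2.88 and 3.66 FPKM and then 2.25, 2.28 and 2.35 FPKM. It fell by 0.43 on the log2 scale (adjusted p = 0.00719), the smallest of the 3 falls. Wnt6, its neighbour on chromosome 1 at a distance of 6193 bp, was at 2.96 to 4.08 FPKM and at 3.01 to 3.68 FPKM, with overlapping groups (adjusted p = 0.640).

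Summed over the 8 ligand genes, the level was 37.1, 37.2 and 36.1 FPKM in the BMP4 libraries and 37.7, 39.4 and 38 FPKM in the palovarotene libraries. All 3 palovarotene sums lay above the BMP4 sums, by a small margin beside the shifts between genes. Wnt5a held 35.5% ± 2.56 and Wnt4 30.7% ± 2.34 of the summed ligand FPKM with BMP4 (SD, n = 3), ranks 1 and 2 of 8. With palovarotene Wnt10b held 29.0% ± 0.530 and Wnt9a 17.0% ± 1.31, while Wnt5a held 14.7% ± 0.383 and Wnt4 12.3% ± 0.361. Without Wnt10b and Wnt9a, the other 6 genes summed to 33.3 ± 0.453 FPKM with BMP4 and 20.7 ± 0.486 FPKM with palovarotene. These sums are descriptions of the members, with no test.

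**Figure D3:**
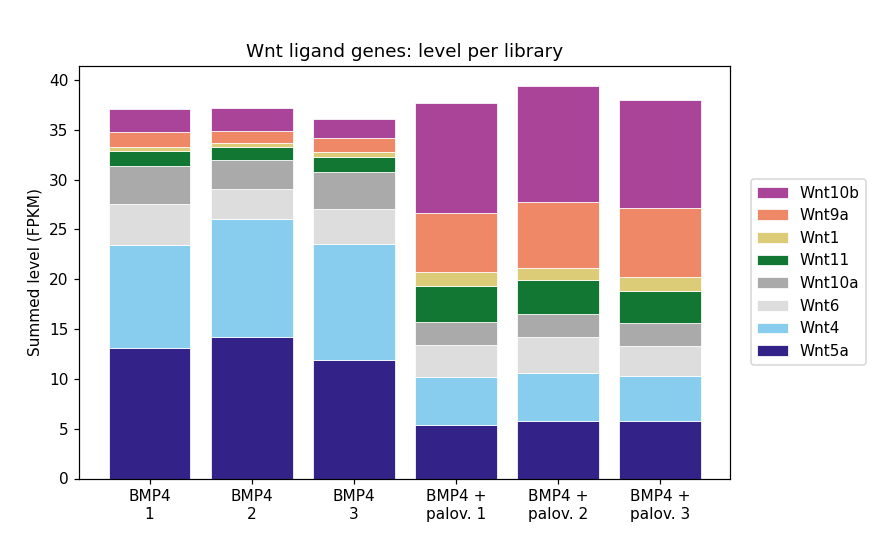
Level (FPKM) of the 8 listed Wnt ligand genes, stacked for each of the 6 libraries. The stacks reach 36.1 to 37.2 FPKM with BMP4 and 37.7 to 39.4 FPKM with palovarotene, while the Wnt10b segment goes from between 1.95 and 2.33 to between 10.8 and 11.6 FPKM.

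Wnt10b and Wnt1 are neighbours on chromosome 15, on opposite strands and with 11706 bp between their start sites, and both rose. The 250 bases before the annotated start of each, from RefSeq on GRCm38.p6, are shown 5′ to 3′ on the strand of the gene. Wnt10b is shown as the gene with the largest rise on the log2(FPKM + 1) scale (1.93, against 1.92 for Lgr6). That order turns with a pseudocount of 0.1 (2.29 against 3.37) and by the ratio of mean levels (5.06 against 13.3). Wnt1 was chosen after its values were seen, because of the 3 pairs of members within 100000 bp of each other only this one had both genes called. The Wnt10b stretch is chr15:98778151-98778400 on the minus strand and the Wnt1 stretch chr15:98789607-98789856 on the plus strand.
Wnt10b: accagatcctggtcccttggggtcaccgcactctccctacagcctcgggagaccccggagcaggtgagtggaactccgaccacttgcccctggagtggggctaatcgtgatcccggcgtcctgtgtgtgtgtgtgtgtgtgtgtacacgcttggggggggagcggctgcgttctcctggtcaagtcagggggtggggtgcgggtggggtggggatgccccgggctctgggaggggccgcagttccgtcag
Wnt1: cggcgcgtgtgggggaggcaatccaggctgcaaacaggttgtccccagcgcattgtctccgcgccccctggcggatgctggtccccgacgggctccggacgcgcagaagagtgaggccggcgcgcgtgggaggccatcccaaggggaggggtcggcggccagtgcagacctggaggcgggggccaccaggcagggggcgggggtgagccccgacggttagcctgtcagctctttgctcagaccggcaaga
Their GC content was 66.8% and 71.6%. Promoter windows of 300 bases (250 before to 50 after the start) were searched on both strands for the TCF/LEF sequences CTTTGAA and CTTTGAT, which differ in the last base. They were also searched for direct repeats bound by retinoic acid receptors, in 4 spellings (AGGTCA or AGTTCA, then any 5 bases, then AGGTCA or AGTTCA). A shorter repeat (GGTCA, any 5 bases, GGTCA), which is not contained in those 4 spellings, was searched separately. No match lay in either window, so nothing is in capitals. Of 32851 windows of all genes in the table, 8.65% held a TCF/LEF sequence, 0.0396% one of the 4 longer repeats and 0.0761% the shorter one. Among 38 windows of the 31 members with an entry, 2 held a TCF/LEF sequence (Gsk3a and Wnt11) and 0 a repeat. Rspo2 had no entry.

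Wls, which carries lipid-modified Wnt proteins to the cell surface, was the only gene of ligand secretion with a gene row. It had 33.4 to 37.7 FPKM with BMP4 and 30.0 to 30.3 FPKM with palovarotene, without overlap. The fall of 0.22 on the log2 scale passed the threshold (limma adjusted p = 0.0149). It missed it without palovarotene replicate 3 (adjusted p = 0.0515) and with a replicate block. The call held in 11 of 13 alternatives, over which the adjusted p was 0.00953 to 0.0515.

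All 7 listed Frizzled genes changed, 5 upward and 2 downward, where 43.0% of all tested genes were called, 19.1% higher and 23.8% lower. Fzd7 (chr1:59482424-59486955), a receptor of β-catenin signalling in stem cells, had 21.5, 20.4 and 20.5 FPKM with BMP4 and 39.7, 37.9 and 38.7 FPKM with palovarotene. Fzd4, the receptor of norrin in retinal vessels, had 13.4, 12.9 and 12.5 FPKM and then 21.5, 21.0 and 21.7 FPKM. Both rose without overlap, Fzd7 by 0.87 (SE 0.0420, limma adjusted p = 9.54e-06) and Fzd4 by 0.69 (SE 0.0442, adjusted p = 3.64e-05). Fzd6, known for hair and tissue polarity, stood at 11.5, 12.8 and 10.7 FPKM and then at 16.2, 15.9 and 17.2 FPKM (log2 fold change 0.46, adjusted p = 0.00194). Fzd2 showed 10.2, 9.28 and 9.57 FPKM and then 12.6, 12.4 and 11.8 FPKM, a rise of 0.31 (adjusted p = 0.00312). Fzd8 rose by 0.32, from between 3.16 and 3.72 to between 4.34 and 4.82 FPKM (adjusted p = 0.00918).

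Fzd1 (chr5:4753839-4758035) moved the other way, with 37.3, 35.2 and 33.3 FPKM in the BMP4 libraries and 21.7, 21.2 and 21.7 FPKM in the palovarotene libraries. It fell by 0.69 (SE 0.0508, adjusted p = 6.77e-05), and Fzd5, at 1.71 to 1.91 and 1.31 to 1.43 FPKM, fell by 0.25 (adjusted p = 0.00993). The order of the receptors changed with these shifts. With BMP4, Fzd1 was the highest in every library, followed by Fzd7. With palovarotene, Fzd7 was the highest in every library, and Fzd1 and Fzd4 followed with overlapping values. The level of Fzd7 was 0.592 ± 0.0223 times that of Fzd1 with BMP4 and 1.80 ± 0.0236 times with palovarotene (SD, n = 3). The 7 genes summed to 95.7 ± 3.88 FPKM and 116 ± 2.06 FPKM.

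**Figure D4:**
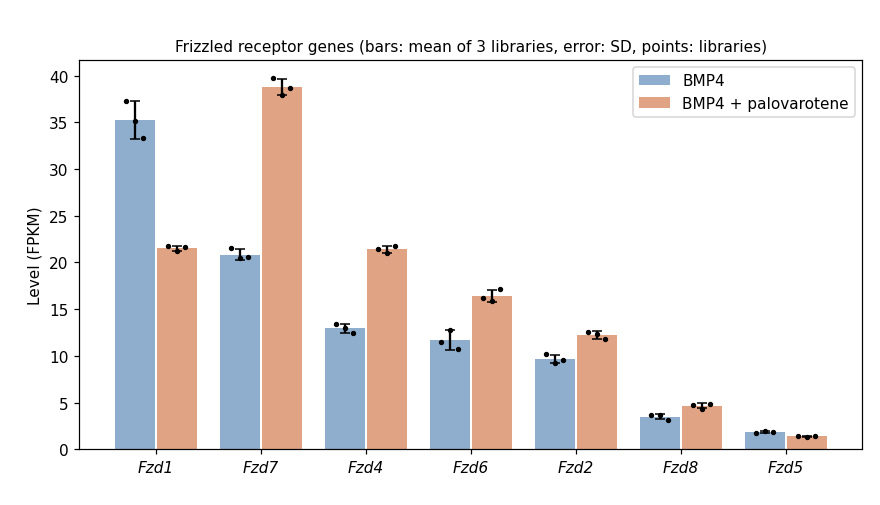
Level (FPKM) of the 7 listed Frizzled receptor genes; bars are means of 3 libraries, error bars the SD and points the libraries. Fzd1 leads with BMP4 (33.3 to 37.3 FPKM) and Fzd7 with palovarotene (37.9 to 39.7 FPKM).

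The co-receptor genes showed no called change. Lrp5 had 11.6, 8.86 and 9.38 FPKM with BMP4 and 9.20, 9.16 and 8.74 FPKM with palovarotene (log2 fold change -0.12, SE 0.0945, limma adjusted p = 0.346). Lrp6 had 15.0, 15.6 and 14.1 FPKM and then 14.4, 13.5 and 14.8 FPKM (-0.06, SE 0.0562, adjusted p = 0.404). In both genes the groups overlapped, and BMP4 replicate 1 was the highest library for Lrp5. Ryk, a receptor-like pseudokinase gene, was among the most abundant members at 31.4 to 34.7 and 30.9 to 31.5 FPKM and was not called either (adjusted p = 0.205). Of the Ror receptor tyrosine kinase genes, Ror1 rose from 0.247, 0.286 and 0.168 FPKM to 0.923, 0.629 and 0.819 FPKM (0.53, adjusted p = 0.00144). It remained far below Ror2, which had 7.65, 6.81 and 6.96 FPKM and then 6.01, 6.53 and 5.77 FPKM. The fall of Ror2, 0.20 on the log2 scale, passed narrowly (adjusted p = 0.0483) and was lost in 8 of 13 alternatives, over which its adjusted p ranged from 0.0430 to 0.151.

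Of the 8 extracellular modulators, 2 rose, 3 fell and 3 were not called (62.5% called, against 43.0% of all tested genes). The Sfrp genes, whose products bind Wnt proteins through a Frizzled-like domain, did not move together. Sfrp2 (chr3:83766321-83774316) had 29.1, 31.9 and 31.3 FPKM with BMP4 and 0.238, 0.263 and 0.343 FPKM with palovarotene. Its mean level was 109 times as high with BMP4, and no other member changed as much (log2 fold change -4.63, SE 0.0601, limma adjusted p = 6.24e-08). Sfrp4 rose, from 2.56, 2.60 and 2.61 FPKM to 4.13, 3.78 and 4.15 FPKM (0.48, adjusted p = 0.000442). Sfrp1 had 6.21, 7.52 and 6.56 FPKM and then 7.85, 7.90 and 7.75 FPKM, groups that did not overlap but missed the threshold (0.19, adjusted p = 0.0668). It passed with quantile normalization, with median-ratio scaling and without BMP4 replicate 2, and its adjusted p over the alternatives was 0.0110 to 0.162. The summed Sfrp level was 40.1 ± 2.13 FPKM with BMP4 and 12.1 ± 0.167 FPKM with palovarotene, and without Sfrp2 it was 9.35 ± 0.697 and 11.9 ± 0.158 FPKM (SD, n = 3).

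The 250 bases before the start of Sfrp2 (chr3:83766071-83766320, plus strand) are printed as those of the member with the largest change, and those of Axin2 (chr11:108920099-108920348, plus strand), the usual readout gene of β-catenin signalling, for comparison.
Sfrp2: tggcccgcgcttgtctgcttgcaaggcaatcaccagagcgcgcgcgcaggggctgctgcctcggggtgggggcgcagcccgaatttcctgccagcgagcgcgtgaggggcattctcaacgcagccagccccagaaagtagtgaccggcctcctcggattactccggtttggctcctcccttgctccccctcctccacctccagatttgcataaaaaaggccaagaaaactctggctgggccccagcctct
Axin2: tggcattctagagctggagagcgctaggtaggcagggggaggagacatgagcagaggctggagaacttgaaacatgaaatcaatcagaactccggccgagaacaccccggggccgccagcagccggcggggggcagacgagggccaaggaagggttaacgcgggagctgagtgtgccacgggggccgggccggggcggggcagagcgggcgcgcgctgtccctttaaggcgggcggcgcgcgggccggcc
Neither 300-base window held one of the searched sequences, and the printed stretches had a GC content of 63.6% and 69.2%.

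The Dickkopf genes, whose products include blockers of Lrp5 and Lrp6, moved in opposite directions. Dkk3, a divergent member of the family, had 16.3, 15.7 and 16.2 FPKM and then 28.2, 28.0 and 27.0 FPKM. All palovarotene libraries lay above all BMP4 libraries (log2 fold change 0.75, SE 0.0410, limma adjusted p = 1.62e-05). Dkk2, a binder of Lrp6, fell from 0.918, 0.843 and 1.00 FPKM to 0.295, 0.329 and 0.311 FPKM (-0.55, adjusted p = 0.000196). Kremen1, a Dickkopf receptor gene, also fell, from 11.8, 11.4 and 10.8 FPKM to 7.86, 7.80 and 8.10 FPKM (-0.47, adjusted p = 0.000361). Notum, which encodes an enzyme that strips the lipid from Wnt proteins, varied from 2.33 to 3.04 FPKM and from 1.97 to 3.73 FPKM and was not called (adjusted p = 0.769). Apcdd1, a membrane inhibitor gene, was at 5.15 to 5.47 and 5.12 to 5.42 FPKM (adjusted p = 0.860). The whole group of modulators summed to 76.5 ± 1.23 FPKM with BMP4 and 56.4 ± 1.15 FPKM with palovarotene.

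In the R-spondin system, ligand genes fell and a receptor gene rose. R-spondins bind Lgr receptors and remove the ubiquitin ligases Znrf3 and Rnf43, which otherwise clear Frizzled from the membrane. Rspo2 (chr15:43020794-43170826) had 5.11, 5.58 and 5.28 FPKM with BMP4 and 0.640, 0.508 and 0.560 FPKM with palovarotene. Its mean was 9.35 times as high with BMP4 (log2 fold change -2.01, SE 0.0579, limma adjusted p = 1.03e-06), the next largest fall among the members after Sfrp2. Rspo3 fell less, from 1.61, 1.60 and 2.01 FPKM to 1.12, 0.961 and 1.04 FPKM (-0.42, adjusted p = 0.00362). Lgr6 (chr1:134983301-135105276), which marks stem cells of mouse skin, rose from 0.253, 0.387 and 0.234 FPKM to 3.74, 3.85 and 4.09 FPKM. That was a ratio of means of 13.3 and a log2 fold change of 1.92 (SE 0.0644, adjusted p = 1.89e-06). Lgr4, the more abundant receptor, was at 11.4 to 13.6 and 13.3 to 14.1 FPKM and was not called (0.16, adjusted p = 0.121). It passed without BMP4 replicate 2 (0.23, adjusted p = 0.0127), and its adjusted p over the alternatives was 0.0127 to 0.286. Znrf3 lay between 1.21 and 2.21 FPKM with BMP4 and between 1.40 and 1.75 FPKM with palovarotene (adjusted p = 0.994).

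In the cytoplasm, the β-catenin gene rose and 6 of the other 10 genes fell (63.6% called, against 43.0% of all tested genes). Ctnnb1 had 44.6, 39.1 and 36.3 FPKM with BMP4 and 56.2, 55.6 and 54.4 FPKM with palovarotene (log2 fold change 0.46, SE 0.0740, limma adjusted p = 0.00247). By gene value, it was the most abundant Wnt gene in every library. Transcript values gave another order: Ryk-203 (35.9 to 46.0 FPKM) lay above Ctnnb1-201 (25.3 to 37.7 FPKM), the highest Ctnnb1 transcript, in every library. Of the exon bases of Ctnnb1, 14.6% lie opposite exons of Ulk4, at 1.22 and 1.5 FPKM on average. Exons of 14 members share bases with another annotated gene, 2 of them with a listed one. Their values are uncertain because the labels do not state if strand was used in counting. Members with an unlisted partner on the opposite strand include Notum (29.4% of exon bases, with Notumos), Gsk3a (28.3%), Fzd5 (17.8%) and Sfrp2 (16.1%). Nkd2 (chr13:73818534-73847631), a feedback inhibitor gene that acts on Dishevelled, had 2.52, 2.47 and 2.22 FPKM and then 0.265, 0.309 and 0.321 FPKM, so that the mean was 8.05 times as high with BMP4 (-1.39, SE 0.0553, adjusted p = 3.90e-06). Its relative Nkd1 stood at 4.19 to 4.52 and 3.00 to 3.55 FPKM and fell by 0.32 (adjusted p = 0.00726). Of the Dishevelled genes, which relay the signal from Frizzled, Dvl1 fell by 0.36 (22.6 to 26.9 and 17.8 to 20.0 FPKM, adjusted p = 0.00886) and Dvl2 by 0.35 (13.4 to 15.7 and 10.7 to 12.1 FPKM, adjusted p = 0.00829). Exons of Dvl2 overlap those of Acadvl on the opposite strand over 18.3% of their bases, and Acadvl rose by 0.48 (adjusted p = 0.000654). Dvl3, with overlapping groups, was not called (-0.10, adjusted p = 0.541).

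Of the scaffold and kinase genes of the destruction complex, Gsk3a and Axin2 fell, and Axin1, Gsk3b and Apc were not called. Axin1 had 24.7, 21.5 and 21.6 FPKM with BMP4 and 23.5, 22.0 and 21.2 FPKM with palovarotene (log2 fold change -0.02, SE 0.0682, limma adjusted p = 0.816). Gsk3b had 17.2, 19.7 and 17.6 FPKM and then 18.4, 17.6 and 19.8 FPKM (0.03, SE 0.0687, adjusted p = 0.711). The groups overlapped in both. Gsk3a fell by 0.20, from between 32.0 and 35.4 to between 28.4 and 29.6 FPKM (adjusted p = 0.0165). This call was lost without palovarotene replicate 1 (adjusted p = 0.0634) or replicate 3 (adjusted p = 0.0570), and with a replicate block. It held in 10 of 13 alternatives, over which the adjusted p was 0.0145 to 0.0634. Apc was uneven within both groups: 6.44, 6.82 and 2.86 FPKM with BMP4 and 3.05, 6.16 and 6.94 FPKM with palovarotene, where BMP4 replicate 3 and palovarotene replicate 1 were low. Its SE of 0.344 was the largest of the 49, and it was not called (adjusted p = 0.981). Axin2, the inducible scaffold gene, was low, with 0.897, 0.910 and 0.791 FPKM and then 0.431, 0.632 and 0.613 FPKM. The groups did not overlap (-0.26, SE 0.0672, adjusted p = 0.0190), but the call was lost without BMP4 replicate 1 (adjusted p = 0.0522) or replicate 2 (adjusted p = 0.0533), and the adjusted p over all alternatives was 0.0176 to 0.0533.

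All 4 TCF/LEF genes, which encode the nuclear partners of β-catenin, fell without overlap of the groups. Over all tested genes, 23.8% were called lower and 54.9% had groups that did not overlap. Tcf7 had 17.2, 20.1 and 18.6 FPKM with BMP4 and 10.3, 9.73 and 10.02 FPKM with palovarotene (log2 fold change -0.83, SE 0.0634, limma adjusted p = 7.90e-05). Tcf7l2 had 2.33, 2.63 and 2.18 FPKM and then 1.44, 1.63 and 1.45 FPKM (-0.43, adjusted p = 0.00232). Lef1 fell by 0.28, from between 1.09 and 1.22 to between 0.706 and 0.869 FPKM (adjusted p = 0.00730). Tcf7l1, known mainly as a repressor, fell least, with 13.9, 13.4 and 14.6 FPKM and then 11.8, 11.7 and 11.4 FPKM (-0.24, adjusted p = 0.00674). Tcf7 was the highest of the 4 in each BMP4 library and Tcf7l1 in each palovarotene library. Together they summed to 36.1 ± 1.41 FPKM and 24.0 ± 0.348 FPKM (SD, n = 3).

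Transcripts of Wnt genes also moved in both directions. The transcript table held 90 transcripts of Wnt genes, of which 82 were tested, 15 rose and 15 fell (36.6% called). Of all 21101 tested transcripts 12.9% were called, 6.49% higher and 6.42% lower. The change was at least 2-fold in 10 Wnt transcripts (12.2%, against 3.07% of all), and the groups did not overlap in 47 (57.3%, against 34.4%). The called transcripts of Wnt1, Ror1, Dkk2, Sfrp2, Lgr6, Nkd2 and Wnt16, and Wnt10b-204, had a group mean under 0.5 FPKM. They were thus listed through the other group, and the transcript shares were not restricted for this. Transcript calls depended on single libraries: without BMP4 replicate 3 or any 1 palovarotene library, 8 to 10 rose and 8 or 9 fell. All but 1 of the 30 called transcripts belonged to a gene called in the same direction, which is not independent of the gene values. The exception was Wnt16-201, whose gene had no row: it fell from 1.30, 0.971 and 0.839 FPKM to 0.411, 0.171 and 0.0973 FPKM (log2 fold change -0.73, limma adjusted p = 0.0319). This transcript was listed through the BMP4 group, with a mean of 0.226 FPKM with palovarotene. The 30 called transcripts came from 24 genes, Wnt16 included, whereas 36 genes were called. Called genes without a called transcript were Wnt10a, Fzd5, Fzd8, Ror2, Rspo2, Rspo3, Axin2, Dvl1, Dvl2, Gsk3a, Nkd1, Lef1 and Tcf7l2. The listed Rspo2 transcripts had log2 fold changes of -1.42 and -1.59 (limma adjusted p = 0.382 and 0.151). Porcn-202, a transcript of the gene that attaches the lipid to Wnt proteins, was at 0 to 0.419 FPKM and 0.544 to 0.624 FPKM, under the level required for the test. The rise of Wnt10b lay mainly in Wnt10b-206, from 1.51, 2.41 and 2.11 FPKM to 10.4, 9.67 and 9.89 FPKM (1.88, adjusted p = 0.00103). Wnt10b-204 was listed at 0 in the BMP4 libraries and at 2.20, 3.11 and 2.32 FPKM with palovarotene. Wnt5a-201, from 6.34 to 7.41 FPKM to 2.57 to 3.06 FPKM, and Wnt5a-202, from 12.4 to 15.8 FPKM to 5.86 to 7.19 FPKM, both fell (adjusted p = 0.00276 and 0.00487).

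For some genes the split among transcripts varied more between libraries than the gene value did. Lrp5-201 was at 21.8 FPKM in BMP4 replicate 1 and at 1.61 and 1.29 FPKM in replicates 2 and 3, with 16.0, 17.2 and 15.0 FPKM in the palovarotene libraries (limma adjusted p = 0.309). Rspo2-201 was listed at 0 in BMP4 replicate 1 and palovarotene replicate 2, where the other listed Rspo2 transcript held the signal. Gsk3b-202 was at 5.91 and 6.13 FPKM in BMP4 replicates 3 and 2 and at 0.574 to 0.686 FPKM in the other 4 libraries. None of these transcripts was called. Both Wls transcripts fell, Wls-201 by 0.78 (adjusted p = 0.0222) and Wls-205 by 0.68 (adjusted p = 0.0484), more than the gene did. Transcript values did not add up to the gene value: in BMP4 replicate 2, Wls-201 alone was at 40.4 FPKM and the gene at 37.7 FPKM. Ranks and shares between genes rest on the gene values.

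**Figure D5:**
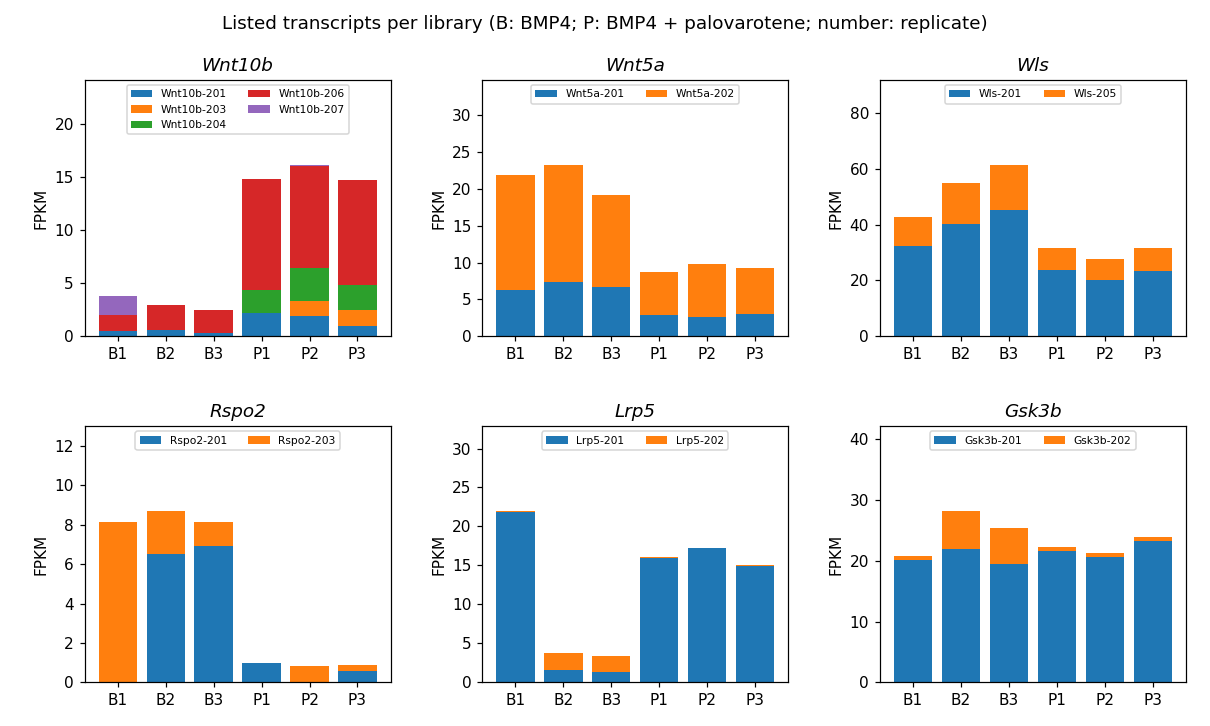
FPKM of the listed transcripts of Wnt10b, Wnt5a, Wls, Rspo2, Lrp5 and Gsk3b, stacked for each library (B, BMP4; P, BMP4 + palovarotene). Wnt10b-206 makes up most of the Wnt10b stack with palovarotene, and the Lrp5 stack of BMP4 replicates 2 and 3 is lower than that of the other 4 libraries.

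Of the wider pathway, genes listed as β-catenin targets that are not members moved in both directions. Of 25 tested, 6 rose and 11 fell (68.0% called, against 43.0% of all tested genes), and their median log2 fold change was 0.08. Ccnd1, the cyclin D1 gene, fell from 14.2 ± 0.196 to 6.71 ± 0.319 FPKM (SD, n = 3; -0.98, limma adjusted p = 1.12e-05). Vcan, a matrix proteoglycan gene, fell from 55.6 ± 5.07 to 7.33 ± 0.129 FPKM, and Fst, the gene of the activin antagonist follistatin, by 2.31. Fgf18, a growth factor gene of bone and cartilage, rose from 1.23 ± 0.0868 to 7.02 ± 0.599 FPKM, and Efnb1, an ephrin gene, by 1.66. Myc was at 7.96 ± 0.399 and 9.28 ± 0.973 FPKM and was not called (adjusted p = 0.0846). Many genes of such a list respond to other signals too, so its counts do not measure β-catenin activity.

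Partners of β-catenin in its degradation and in the nucleus had 9 genes higher and 7 lower of 39 tested (41.0% called, against 43.0% of all tested genes), a share near that of all genes, with a median log2 fold change of 0.02. Tle3, a corepressor gene of TCF/LEF factors, rose from 4.29 ± 0.462 to 7.84 ± 0.156 FPKM (SD, n = 3; 0.75, limma adjusted p = 0.000230), whereas its paralogue Tle1 fell from 7.71 ± 0.390 to 4.05 ± 0.286 FPKM (-0.79, adjusted p = 0.000104). Ctnnbip1, an inhibitor gene of the β-catenin and TCF interaction, fell by 0.67, and Tnks2, a tankyrase gene whose product destabilizes Axin, rose by 0.45. The other tankyrase gene, Tnks, named after its values were seen, fell from 15.0 ± 1.44 to 9.78 ± 0.267 FPKM (-0.57, adjusted p = 0.000848). Polarity and other non-canonical genes had 6 higher and 10 lower of 30 tested (53.3% called, against 43.0%; 19.1% higher and 23.8% lower over all tested genes), with a median of -0.07. Nfatc4, a calcium-regulated transcription factor gene, fell from 9.04 ± 1.08 to 3.72 ± 0.130 FPKM (-1.08, adjusted p = 7.54e-05), Nfatc1 fell by 0.61 and Prkca, a protein kinase C gene, by 0.56. Prickle1, a core polarity gene, rose by 0.48 (adjusted p = 0.000294).

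Further extracellular regulators had 8 genes higher and 5 lower of 25 tested (52.0% called, against 43.0% of all tested genes), with a median of 0.09. With BMP4 replicate 3 left out 2 were lower, and with BMP4 replicate 2 or any 1 palovarotene library left out, 3. Sulf1, which trims heparan sulfate chains that hold Wnt proteins, rose from 4.67 ± 0.411 to 17.0 ± 0.508 FPKM (SD, n = 3; 1.67, limma adjusted p = 3.32e-06). Cpz, a carboxypeptidase gene with a Frizzled-like domain, rose from 1.70 ± 0.164 to 7.52 ± 0.754 FPKM (1.65, adjusted p = 1.03e-05). Frzb, a further gene of the Sfrp family that the naming rule does not cover, rose from 0.358 ± 0.0532 to 1.74 ± 0.191 FPKM (1.01, adjusted p = 4.35e-05), and was listed through the palovarotene group. Adgra2, a receptor gene that assists Wnt7 signalling in brain vessels, rose by 0.83 (adjusted p = 2.25e-05).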

How the data were processed

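Polyadenylated RNA of 6 libraries of 2H11 cells was made into strand-specific paired-end libraries, per the labels' protocols. The authors deposited FPKM values per gene and per transcript, per the file headers. FastQC, cutadapt, HISAT2 and StringTie and the build GRCm38 are named in the submitters' processing notes without versions, and use of the strand in counting is not stated. In both deposited tables the rows are protein-coding, and the higher group mean is at least 0.5 FPKM, to rounding. FPKM values did not step in whole fragments, so depth is unknown and counting error cannot be given.

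Values were tested as log2(FPKM + 1) with limma 3.58.1 in R 4.3.3 (variance trend, empirical Bayes, two-sided, groups of 3 and 3, no replicate block), over all rows whose mean reached 0.5 FPKM, with Benjamini-Hochberg adjustment over the whole table and a threshold of 0.05. The procedure was tested on simulated data in which far fewer rows were changed than were called here, and none of low level. The simulation therefore does not cover genes such as Axin2 and Ror1. SDs are over 3 libraries. Where a symbol had several rows, the one with the highest mean was used. Library values are given for members called with an absolute log2 fold change of at least 0.4 and for a fixed set of core genes, and of each list outside the members the 4 genes with the smallest p are named, plus Ccnd1 and Myc. The Wnt members and the lists were chosen with earlier results of these data known. Alternatives were a pseudocount of 0.1, no filter and a filter at 5 FPKM, quantile normalization, median-ratio scaling, each library left out, a replicate block and no variance trend. Promoter windows came from RefSeq (GRCm38.p6). Protein sequences were not used here.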

Additional observations from a re-analysis of the deposited data

How the results depend on the processing

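Of the 36 called Wnt genes, 32 kept the call in each of 13 alternatives that tested them; Ror2, Wls, Gsk3a and Axin2 did not. With 1 library left out, 13 to 16 Wnt genes were higher and 19 to 22 lower. Such omissions gave 8 to 12 Wnt transcripts higher and 8 to 14 lower, 5 to 7 β-catenin targets higher and 11 to 12 lower, 6 to 10 degradation and nuclear partners higher and 6 to 9 lower, 4 to 7 polarity genes higher and 8 to 9 lower, and 6 to 8 extracellular regulators higher and 2 to 4 lower. A filter at a mean of 5 FPKM, which tests fewer genes, gave 7 Wnt genes higher and 12 lower of 29, 7 Wnt transcripts higher and 9 lower of 33, 3 polarity genes higher and 5 lower, 7 β-catenin targets lower and 2 extracellular regulators lower. Quantile normalization and median-ratio scaling each gave 3 extracellular regulators lower; the cause was not tested.

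Libraries with the same replicate number did not deviate together (r = -0.0640, -0.136 and -0.0207 across genes). With 3 libraries per group this cannot decide if a number marks a shared culture or day, which the labels do not state. A replicate block gave 14 Wnt genes higher and 19 lower, 7 Wnt transcripts higher and 5 lower, and 3 extracellular regulators lower; Ror2 (adjusted p = 0.111), Wls (0.0501) and Gsk3a (0.0614) then missed the threshold in limma.

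The sign reversed only in 7 genes that were not called. With 1 library left out, the log2 fold change was -0.315 to 0.312 for Apc, -0.0101 to 0.0922 for Gsk3b, -0.0603 to 0.0413 for Axin1, -0.160 to 0.0202 for Wnt6, -0.116 to 0.153 for Znrf3, -0.0792 to 0.256 for Notum and -0.0368 to 0.00878 for Apcdd1. Median-ratio scaling gave 0.0107 for Axin1, 0.0193 for Znrf3 and 0.0162 for Apcdd1. Quantile normalization gave 0.00693 for Znrf3 and 0.0252 for Apcdd1, and a pseudocount of 0.1 gave 0.00976 for Znrf3. Ror1 fell below the filter without any 1 palovarotene library and was not tested there. The unknown depth limits genes at low FPKM, such as Axin2, Ror1 and Dkk2.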

Other observations

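The ratios between members that replaced each other in rank were set beside each other as values only. The level of Wnt10b was 0.168 ± 0.00764 times that of Wnt5a with BMP4 and 1.98 ± 0.0821 times with palovarotene (SD, n = 3). That of Wnt9a was 0.116 ± 0.0219 times that of Wnt4 and then 1.39 ± 0.147 times. Sfrp1 was at 0.220 ± 0.0140 times the level of Sfrp2 and then at 28.5 ± 5.36 times, with 22.6 the lowest palovarotene library. The R-spondin ligand genes summed to 7.07 ± 0.304 FPKM and 1.61 ± 0.147 FPKM, and the Dishevelled genes to 46.1 ± 3.79 FPKM and 36.6 ± 1.83 FPKM.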
